A study of Rattus norvegicus with 60 samples.

Results

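Phenobarbital was compared between hepatocytes (HC) and mesenchymal liver cells (MC) after 14 d of dosing. For each gene the quantity reported is the change in HC (phenobarbital minus water) minus the change in MC, called the fraction difference below. It used 12 of the 60 arrays of the series, 3 in each of 4 groups. The groups were HC and MC of Wistar rats given phenobarbital (PB) at 50 mg/kg in drinking water for 14 d, and HC and MC of rats given water alone (0 mg/kg) for as long. All 12 arrays were labelled male, and the rats were 8 weeks old. The labels do not state which cell types the mesenchymal fraction holds, how the cells were separated, or whether the replicates came from separate animals. P-values therefore measure only the spread between arrays, estimated over all 60 arrays of the series, and this spread may be technical. The series also profiled both fractions 24 h after a single PB dose and after cyproterone acetate (CPA). One probe set stood for each gene, which left 14217 genes, and every value is on the authors' log2 scale.

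Phenobarbital is an antiepileptic drug that promotes liver tumours in rodents. It acts on hepatocytes mainly through the nuclear receptor CAR (Nr1i3) and, in part, PXR (Nr1i2), which pair with RXR and switch on drug-metabolising enzymes of phase I (oxidation and hydrolysis) and phase II (conjugation). Hepatocytes also differ by place: cells around the central vein follow Wnt and beta-catenin signals and make glutamine synthetase (Glul), while periportal cells make urea and glucose. The mesenchymal fraction of liver can hold Kupffer cells, which are resident macrophages, as well as sinusoidal endothelial cells, stellate cells and blood cells.

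Markers of the named cell types separated the fractions, and hepatocyte transcripts were also present in MC. Albumin (Alb) stood between 13.84 and 13.86 on the 6 HC arrays and between 12.52 and 13.71 on the 6 MC arrays. The Kupffer lectin Clec4f stood at 4.01 to 7.36 in HC and 11.65 to 12.69 in MC, and the endothelial receptor Lyve1 at 3.17 to 6.87 in HC and 11.99 to 12.43 in MC. The mean of 19 measured hepatocyte markers was 10.04, 10.03 and 9.74 on the MC water arrays and 8.05, 8.94 and 7.48 on the MC PB arrays, so every PB array was lower. In HC this mean was 11.56, 11.55 and 11.82 with water and 11.67, 11.71 and 11.73 with PB, and the groups overlapped. The mean of 13 Kupffer and macrophage markers in MC was 9.37, 9.78 and 10.2 with water and 10.46, 10.54 and 10.47 with PB, and that of 16 endothelial markers 9.04, 9.05 and 9.0 against 9.76, 9.61 and 9.62. The third HC array of each treatment carried more Kupffer signal (4.92 with water and 6.15 with PB) than the other 4 HC arrays (3.76 to 4.04). In bulk samples fewer cells of a type and less RNA per cell cannot be told apart. Array medians ran from 3.31 to 3.44, and over all probe sets the correlation between replicate arrays was 0.971 to 0.990.

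**Figure D1:**
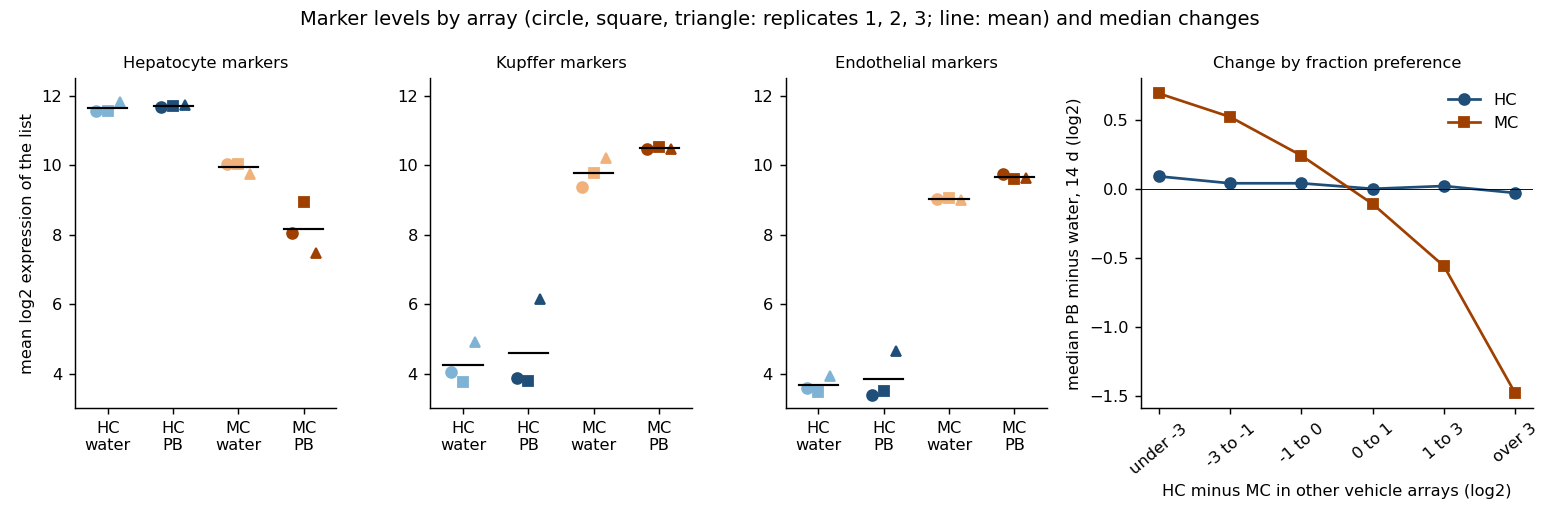
The first 3 panels plot the mean log2 expression of the hepatocyte, Kupffer and endothelial marker lists on each of the 12 arrays, by group, with a line at the group mean. The last panel plots the median change (PB minus water, log2) in HC and in MC over genes sorted by their HC minus MC difference in other vehicle arrays: the HC medians stay between -0.03 and 0.09, and the MC medians run from 0.69 to -1.48.

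The change differed between the fractions in 1561 of 14217 genes (11%) by limma at an adjusted p under 0.05. It was positive (higher in HC than in MC) in 1006 genes (7.08%) and negative in 555 (3.9%). The median standard error (SE) of the fraction difference was 0.26, and 3836 genes had an unadjusted p under 0.05. Tested alone, the MC change was called in 3554 genes (25.0%) and the HC change in 17 (0.12%), of which 11 rose (0.0774%) and 6 fell (0.0422%). The balance of rises and falls in HC turned under some alternatives, with 1 rise and 4 falls on only the 12 arrays, 3 and 4 with array weights, 4 and 6 with a block by replicate number, and 4 and 9 without HC water replicate 2. In MC 1864 genes rose (13.1%) and 1690 fell (11.9%), against 966 and 1198 on only the 12 arrays and 1413 and 1887 with quantile normalization. Of the 1561 genes, 1359 were also called in MC alone and 12 in HC alone, and none was called in both. The estimated changes had opposite signs in the fractions in 1365 of them. Selection on the difference favours opposite signs, and only 12 of the 1561 had a called HC change. This count is therefore no evidence of opposite responses. The count was 976 without HC water replicate 1, 1039 without HC water replicate 2, 1008 without MC water replicate 1, 982 without HC PB replicate 3, 641 without MC PB replicate 1, and between 1387 and 1828 without each of the other 7. The HC count was 8 without HC water replicate 1, 451 without HC water replicate 3, 26 without MC water replicate 3 and 44 without HC PB replicate 3, and the MC count 2154 without MC water replicate 1 and 1954 without MC PB replicate 1. In all 12 of these leave-outs 538 genes stayed called.

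The genes were sorted by their level without treatment, since MC arrays carried varying hepatocyte RNA. Over 15 vehicle arrays of each fraction outside the comparison, 8332 genes were higher in HC and 5885 were not. In each fraction these were corn oil arrays (5 and 4 at 24 h, 3 at 6 d) and 3 water arrays at 24 h. They thus differed from the compared arrays mostly in vehicle and also in sex, as 40 arrays of the series, all outside the comparison, were labelled female. Among the HC-higher genes 1070 (12.8%) were called, 924 of them positive and 146 negative. Among the MC-higher genes 491 (8.34%) were called, 82 positive and 409 negative. The split depends on the arrays used for sorting. When the genes were sorted by the 14 d water arrays, which also enter the fraction difference, 2225 genes changed sides. The HC-higher genes then had 605 positive and 261 negative calls, and the MC-higher genes 401 positive and 294 negative, a turned balance. The HC-higher count was 685 without HC water replicate 1, 707 without HC PB replicate 3 and 489 without MC PB replicate 1. The MC-higher count was 291, 275 and 152 without the same arrays, 316 without HC water replicate 2 and 293 without MC water replicate 1. Of 347 genes more than 3 log2 units higher in HC, 60 were called and all 60 were positive, and of 733 genes more than 3 log2 units higher in MC, 53 were called and 52 were negative. The median MC change was -1.48 in the first of these sets and 0.69 in the second, while the median HC change was -0.03 and 0.09. Hepatocyte marker levels in MC moved with these changes, as given above. With the hepatocyte marker mean of each MC array as a covariate, the count was 208 (160 positive, 48 negative), 158 of them HC-higher and 50 MC-higher. On the MC arrays of this comparison that mean did not overlap between PB and water, so covariate and treatment moved together. A call lost with it can thus reflect a wider error as well as a smaller difference, and the cause was not tested.

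**Figure D2:**
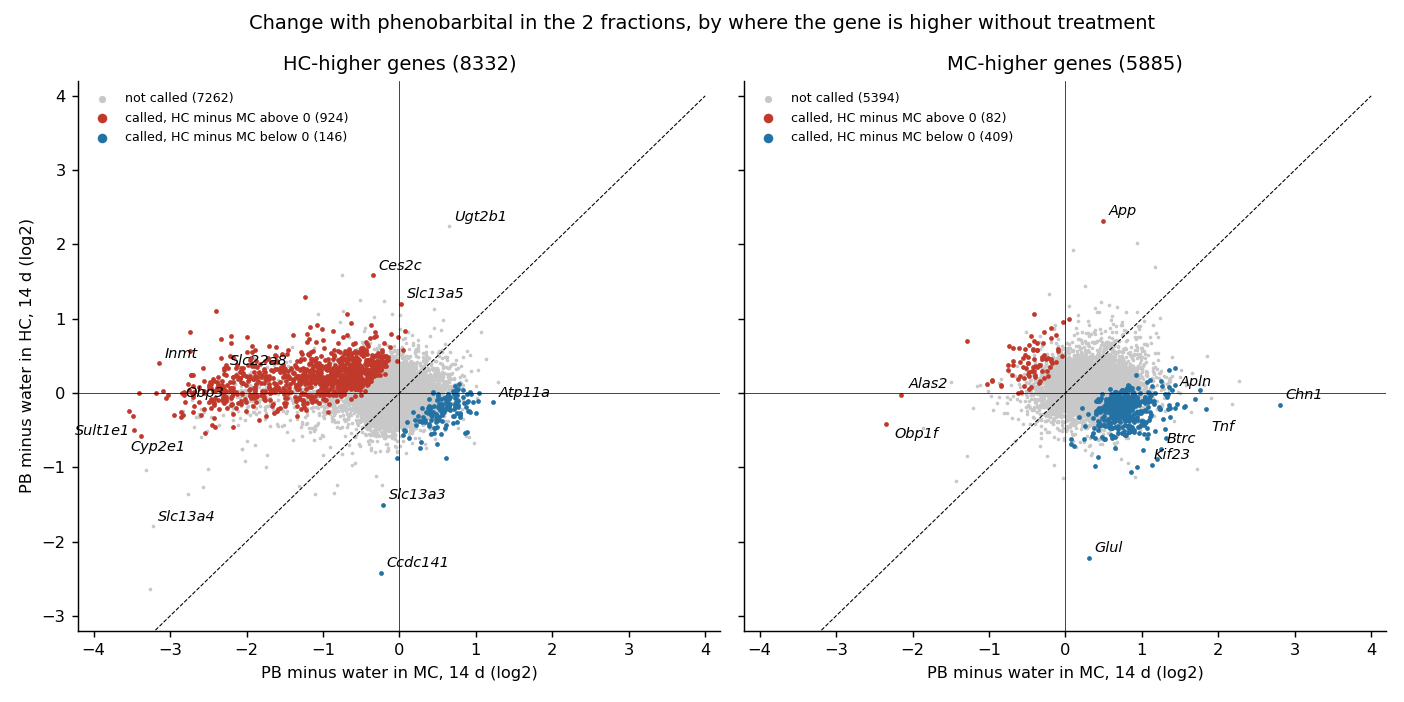
Each point is a gene, with its change in MC (x axis, PB minus water, log2) and in HC (y axis, log2), for the 8332 HC-higher genes on the left and the 5885 MC-higher genes on the right. Red and blue mark called fraction differences above and below 0, and the dashed line marks equal change. Most called genes lie along the x axis, while Glul, Ccdc141, App, Slc13a3, Slc13a5 and Ces2c lie along the y axis.

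In a smaller set the estimated change was larger in HC than in MC in absolute size, an order that was not itself tested. The set held 175 of the 1561 called genes (1.23% of all genes), 124 positive (0.872%) and 51 negative (0.359%). Of these 175 genes, 45 stayed called without each of the 12 arrays in turn. Only 12 of the 1561 had a called HC change, so most genes of this set had none. The genes named from this set are those with the largest fraction difference in each direction among the 101 whose HC arrays of PB and water did not overlap, which was the case for 9.38% of all genes (35.8% for the MC arrays).

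Glul, which makes glutamine from glutamate and ammonia and marks the hepatocytes next to the central vein, fell in HC. The HC water arrays stood at 8.05, 7.87 and 7.81 and the HC PB arrays at 6.04, 4.67 and 6.37. In MC the values were 10.17, 10.22 and 10.03 with water and 10.42, 10.57 and 10.33 with PB. All PB arrays were below all water arrays in HC, and in MC all PB arrays were above all water arrays by a smaller margin. The HC change was -2.22 (adjusted p = 0.00245), the MC change 0.30 (adjusted p = 0.599), and the fraction difference -2.52 (SE 0.55, adjusted p = 0.00342 by limma). With the hepatocyte covariate it was -2.51 (adjusted p = 0.0194). Its call was lost without replicate 1 or 2 of all 4 groups.

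Ccdc141, a coiled-coil protein, also fell in HC and was low in MC with either treatment. Its HC values were 4.06, 4.71 and 5.15 with water and 1.80, 2.53 and 2.33 with PB. Its MC values were 1.61, 2.01 and 1.97 with water and 1.63, 1.55 and 1.68 with PB. The HC groups did not overlap and the MC groups did. The fraction difference was -2.18 (SE 0.43, adjusted p = 0.00142). Its HC change was -2.42 (adjusted p = 3.48e-06). All MC arrays and the HC PB arrays lay below the array medians (3.31 to 3.44), so a fall in MC could hardly have been measured and the size of the fall in HC is uncertain.

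Members of the Slc13 family, which carry anions into cells with sodium, moved in different ways. The citrate transporter Slc13a5 stood at 5.19, 4.89 and 4.69 with water and 5.58, 6.08 and 6.72 with PB in HC. In MC it stood at 3.82, 3.75 and 3.76 with water and 3.80, 3.96 and 3.64 with PB. It rose in HC with no overlap, by 1.21 (adjusted p = 0.00103), against 0.02 in MC, a fraction difference of 1.18 (SE 0.29, adjusted p = 0.00674). The dicarboxylate transporter Slc13a3 stood at 4.82, 4.45 and 4.27 with water and 3.1, 2.74 and 3.18 with PB in HC, and between 2.46 and 3.09 on the MC arrays. It fell in HC with no overlap, by 1.5 (adjusted p = 0.000388), a fraction difference of -1.29 (SE 0.33, adjusted p = 0.0102). As with Ccdc141, all its MC arrays and HC PB arrays lay below the array medians (3.31 to 3.44). A fall in MC could hardly have been measured, and the size of the fall in HC is uncertain. The sulfate transporter Slc13a4 fell in both fractions, with HC values of 8.18, 7.57 and 7.83 against 6.30, 5.63 and 6.26 and MC values of 7.03, 6.44 and 6.06 against 3.18, 3.43 and 3.23. Neither fraction's groups overlapped, with changes of -1.79 in HC (adjusted p = 0.0257) and -3.23 in MC (adjusted p = 7.63e-08). Its fraction difference of 1.44 did not pass (SE 0.52, adjusted p = 0.0664), but did with same-numbered HC and MC arrays as a block (adjusted p = 0.0171), without MC water replicate 3 and without HC PB replicate 2. Slc13a5 lost its call with the hepatocyte covariate (1.11, adjusted p = 0.0505), and 3 of the 5 Slc13 genes were called with the block. Slc13a5 also lost its call on only the 12 arrays (adjusted p = 0.0613) and without replicate 3 of all 4 groups. Slc13a3 lost its call without replicate 1 or 2 of all 4 groups.

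App, the amyloid precursor protein, was higher in MC than in HC but changed more in HC. The HC arrays stood at 5.32, 4.81 and 7.08 with water and 8.28, 8.28 and 7.60 with PB. The MC arrays stood at 10.74, 10.86 and 10.81 with water and 11.38, 11.16 and 11.35 with PB. Neither fraction's groups overlapped, and the high HC water array was the one with more Kupffer signal. The HC change was 2.32 (adjusted p = 3.48e-06), the MC change 0.50 (adjusted p = 0.206), and the fraction difference 1.83 (SE 0.41, adjusted p = 0.00408). With same-numbered arrays as a block the adjusted p was 0.0545, with a block by number 0.0685 and on only the 12 arrays 0.104. The call was also lost without replicate 1 or 2 of all 4 groups. With the hepatocyte covariate the adjusted p was 0.00493 (2.13). With the Kupffer and endothelial marker mean of each HC array as a covariate it was 0.00507 (1.76).

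The other named genes of this set moved in both directions. Nim1k, a kinase of the AMPK-related family, stood at 2.24, 2.97 and 2.32 with water and 3.80, 3.82 and 3.11 with PB in HC, and at 2.16, 2.11 and 1.48 against 1.27, 1.29 and 1.10 in MC, so that the fractions moved in opposite ways with no overlap in either. Its fraction difference was 1.76 (adjusted p = 0.00282), though neither change passed alone (adjusted p = 0.0795 in HC and 0.0508 in MC). All MC arrays and HC water arrays of Nim1k lay below the array medians (3.31 to 3.44), so the sizes of both changes are uncertain. 4930522L14Rikl (1.47), the complex I subunit Ndufa5 (1.47) and the acylphosphatase Acyp1 (1.22) were positive. Spn, the leukocyte surface protein CD43 (-1.93), Fam110a (-1.37) and the mitotic kinase Aurka (-1.29) were negative, each with HC PB arrays between 2.39 and 3.26. The call of Spn was lost without HC water 2, MC water 1, HC PB 2 or MC PB 1 (group and replicate number). That of Fam110a held only without HC water 3, MC water 2, HC PB 2 or MC PB 2, and that of Aurka only without HC water 3 or MC water 3. All 3 lost it with the hepatocyte covariate, while Ccdc141, Slc13a3, Nim1k, 4930522L14Rikl, Ndufa5 and Acyp1 kept it. With that covariate Spn stood at -1.76 (adjusted p = 0.106) and Aurka at -1.21 (adjusted p = 0.159), little moved in size. Fam110a stood at -0.81 (adjusted p = 0.341). On only the 12 arrays limma no longer called 4930522L14Rikl (adjusted p = 0.0830), Ndufa5 (0.0976) and Acyp1 (0.0651), while Nim1k, Spn, Fam110a and Aurka stayed called. Nim1k, 4930522L14Rikl, Acyp1, Spn, Fam110a and Aurka lost their calls without replicate 1 of all 4 groups.

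**Figure D3:**
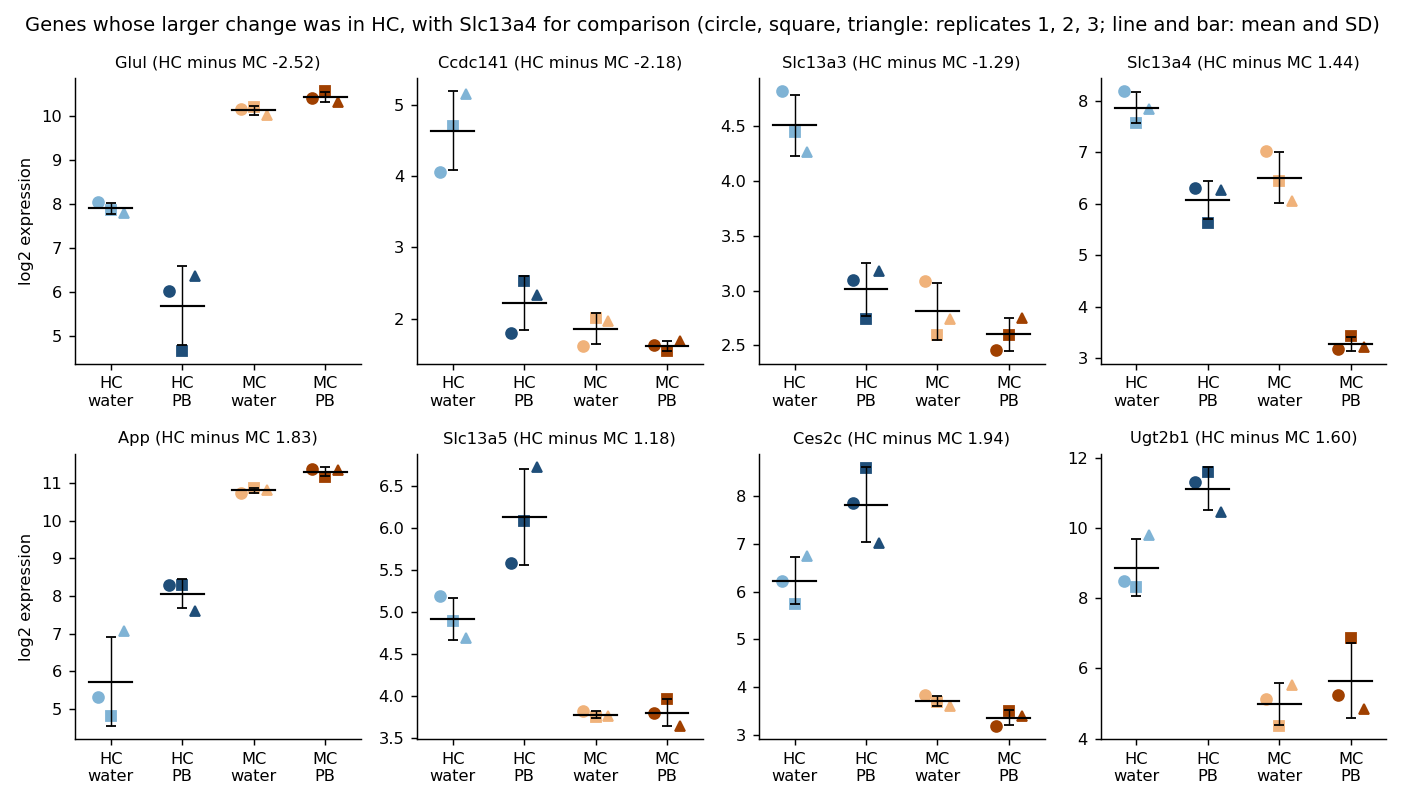
Log2 expression of 8 genes on each of the 12 arrays, by group (HC or MC, water or PB), with the group mean and SD. Glul, Ccdc141 and Slc13a3 are lower with PB in HC, App, Slc13a5, Ces2c and Ugt2b1 are higher with PB in HC, and Slc13a4 is lower with PB in both fractions.

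CAR and PXR bind pairs of the hexamer AGGTCA or AGTTCA, often spaced by 4 bases. RefSeq promoters (GRCr8) run from 250 bases before to 50 after each gene's start, and only the 250 before it were searched. They were given for 11 of the 12 genes named in this hepatocyte-led set. None held any of the 4 direct repeats searched (each hexamer followed, after any 4 bases, by itself or by the other hexamer, on either strand), each of which at most 0.012% of all 33469 promoters held. A single AGTTCA, on either strand, was in 5 of the 11 (Ccdc141, Ces2c, Fam110a, Nim1k and Slc13a3), and in 12.2% of all promoters. A single AGGTCA was in 1 (Nim1k), and in 14.1% of all promoters. A gene was counted if any of its promoters matched, and Fam110a and Nim1k had several promoters. The shares are of single promoters, so they are not like for like with the gene counts. A match is a description of the letters, and no binding was measured. The 250 bases before the start of 3 of these genes are shown, since each held a match and is described above or next, and capitals mark AGTTCA or its reverse complement TGAACT. They lie at chr1:270376951-270377200 on the plus strand (Ces2c), chr3:82455142-82455391 on the minus strand (Ccdc141) and chr3:174623894-174624143 on the minus strand (Slc13a3), each read 5′ to 3′ along the gene.
Ces2c: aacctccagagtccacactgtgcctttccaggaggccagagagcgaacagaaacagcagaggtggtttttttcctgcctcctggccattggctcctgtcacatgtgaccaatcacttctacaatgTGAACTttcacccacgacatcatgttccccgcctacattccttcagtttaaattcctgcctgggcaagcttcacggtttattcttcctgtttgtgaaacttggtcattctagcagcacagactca
Ccdc141: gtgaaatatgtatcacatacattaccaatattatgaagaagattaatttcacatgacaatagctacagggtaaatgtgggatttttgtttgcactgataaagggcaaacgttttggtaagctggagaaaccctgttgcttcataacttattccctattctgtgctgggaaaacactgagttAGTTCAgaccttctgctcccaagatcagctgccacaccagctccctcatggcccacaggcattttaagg
Slc13a3: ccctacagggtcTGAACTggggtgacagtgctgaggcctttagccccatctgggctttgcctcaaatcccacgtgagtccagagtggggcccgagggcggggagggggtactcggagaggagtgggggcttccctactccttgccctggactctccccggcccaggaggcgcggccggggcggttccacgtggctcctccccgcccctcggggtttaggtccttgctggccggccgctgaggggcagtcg
The marked hexamer begins at position -125 from the start in Ces2c, -69 in Ccdc141 and -238 in Slc13a3. Ces2c was higher with PB in HC, and the other 2 genes fell there.

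The Cyp2b probe set, Ugt2b1 and Ces2c, all known targets of PB, were higher in HC with PB on all 3 arrays, though neither Ugt2b1 nor Ces2c was called in HC alone. A single probe set, listed under both Cyp2b1 and Cyp2b2 and so not among the genes tested, stood at 7.37, 7.04 and 8.49 with water and 12.1, 12.57 and 11.7 with PB in HC. In MC it stood at 6.11, 5.48 and 5.50 with water and 7.19, 8.77 and 7.34 with PB. Neither fraction's groups overlapped, and the change was 4.49 in HC and 2.07 in MC. The glucuronosyltransferase Ugt2b1 stood at 8.50, 8.33 and 9.79 with water and 11.32, 11.6 and 10.44 with PB in HC, without overlap. In MC it stood at 5.14, 4.35 and 5.52 against 5.24, 6.87 and 4.84, with overlap. Its fraction difference of 1.60 did not pass (SE 0.87, adjusted p = 0.234), but did with same-numbered HC and MC arrays as a block (adjusted p = 0.0241). The carboxylesterase Ces2c stood at 6.22, 5.74 and 6.74 with water and 7.86, 8.59 and 7.01 with PB in HC, and at 3.82, 3.69 and 3.59 against 3.17, 3.5 and 3.38 in MC, with no overlap in either fraction. Its fraction difference was 1.94 (SE 0.55, adjusted p = 0.0187). The call was lost without HC water 2, HC PB 2 or MC PB 1 and with the hepatocyte covariate (1.42, adjusted p = 0.166). It was also lost without replicate 1 or 2 of all 4 groups.

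Among 19 measured CAR and PXR phase I enzymes, 4 were called and all 4 were positive (21.1%), against 11% of all genes. All 19 were HC-higher. Of genes 1 to 3 log2 units higher in HC 29.7% were called, and of those more than 3 higher 17.3%, so the share is not above that of like genes. Of the 4 called, Ces2c was higher with PB in HC. The carboxylesterase Ces1d (2.38), the aldehyde reductase Akr7a3 (2.31) and cytochrome b5 (Cyb5a, 2.16, adjusted p = 0.00626) were lower with PB in MC. The list's median change was 0.04 in HC and -0.96 in MC, against 0.02 in both over all genes. No member was called in HC alone, and 7 fell in MC, against 11.9% of all genes. Cyb5a stood at 11.25, 11.13 and 11.64 in MC with water and 9.21, 10.28 and 10.36 with PB, and the groups did not overlap. The count was 1 without HC water 2, HC PB 2 or MC PB 1, 2 without HC water 1, MC water 1, HC PB 3 or MC PB 3, and 12 with the block. The calls of Akr7a3 held only without HC water 3, MC water 3 or MC PB 2, and those of Ces1d only without HC water 3, MC water 2, HC PB 1 or MC PB 2. With the hepatocyte covariate the count was 0 and the list's median fraction difference moved from 1.43 to 0.01.

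Both receptors, PXR and CAR, fell in MC. Nr1i2 (PXR) had a fraction difference of 1.23 (adjusted p = 0.0273) and a fall in MC of 1.03, from 5.29, 5.09 and 4.79 to 4.18, 3.88 and 4.02. Its call was lost without HC water 1, HC water 2, MC water 1, HC PB 3 or MC PB 2. Nr1i3 (CAR) stood at 5.73, 5.72 and 6.10 with water and 4.85, 5.19 and 4.74 with PB in HC, and at 5.01, 5.02 and 4.63 against 2.65, 2.92 and 3.04 in MC. It was lower with PB in both fractions with no overlap, but only the MC change passed (-2.02, adjusted p = 0.000527). Its fraction difference of 1.10 did not pass (adjusted p = 0.2195), but did with the block (adjusted p = 0.0344). The corepressor Ncor1 was negative (-0.64, adjusted p = 0.0116), lost without MC PB 1 and with the block (adjusted p = 0.0761). Of the 10 receptor and partner genes 2 were called, 4 with the block, 1 without HC water 2, MC water 1, HC PB 3, MC PB 1 or MC PB 2, and 0 with the hepatocyte covariate.

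Of 34 phase II enzymes and transporters 12 were called (35.3%, against 11% of all genes and 29.7% of those 1 to 3 log2 units higher in HC), all positive. In MC 21 of them fell, against 11.9% of all genes, and none rose. None was called in HC, and the median changes were -1.38 in MC and 0.10 in HC. Sult1e1, which sulfates oestrogens, stood at 11.01, 10.96 and 12.01 with water and 10.71, 10.97 and 11.56 with PB in HC, with overlap. In MC it stood at 10.61, 10.5 and 11.57 with water and 6.00, 7.33 and 8.75 with PB, without overlap. This 11.6-fold fall in MC gave a fraction difference of 3.29 (SE 0.53, adjusted p = 0.000173), which was 3.15 with the hepatocyte covariate (adjusted p = 0.00182). The glutathione transferases Gstm2 (3.06) and Gstm1 (2.56), the sulfotransferase Sult2a6 (2.81) and the organic anion transporter Slc22a8 (2.50) followed. Sult2a6 lost its call without HC water 1, HC water 2, MC water 3, HC PB 3 or MC PB 1, and Gstm1 without HC water 1 or MC PB 1. The count was 5 without HC water 1 or MC PB 1, 6 without HC water 2, 22 with the block and 3 with the hepatocyte covariate.

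Most genes that male rats express more than females fell in MC. Of 16 measured, 10 were called (62.5%), all positive, against 29.7% of all genes that are 1 to 3 log2 units higher in HC. That sorting used mostly female arrays, in which these genes may stand at other levels than in the males compared. In MC 12 fell, against 11.9% of all genes, and in HC none was called. Slc22a8 stood at 8.19, 8.19 and 8.35 with water and 8.14, 8.66 and 8.64 with PB in HC, and at 6.80, 6.15 and 5.67 against 3.53, 4.34 and 3.95 in MC. The HC groups overlapped and the MC groups did not, for a fraction difference of 2.50 (SE 0.28, adjusted p = 3.36e-07). Obp3, a lipocalin, stood at 11.31, 11.6 and 11.19 against 11.34, 11.37 and 10.64 in HC, and at 10.18, 9.85 and 10.56 against 6.61, 7.77 and 7.65 in MC, where the groups did not overlap. Its fraction difference was 2.60 (SE 0.30, adjusted p = 3.37e-07). With the hepatocyte covariate 6 of the 16 were called and the list's median was 1.42, against 1.92 without it, with Obp3 at 2.55 (adjusted p = 4.41e-06) and Slc22a8 at 2.43 (adjusted p = 4.41e-06). Leaving out each array gave 8 to 11 calls, and the block 12. Gstm2 and Sult1e1 belong to this list too, and Gstm2 lost its call with the covariate (1.95, adjusted p = 0.0520).

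Some of the genes with the largest positive fraction difference were in no functional list. Inmt, an N-methyltransferase, stood at 8.12, 7.53 and 8.17 in MC with water and 4.49, 6.26 and 3.62 with PB, a fraction difference of 3.55 (adjusted p = 0.000953). Cela1, an elastase, stood at 9.23, 9.18 and 8.94 against 5.15, 6.43 and 5.55 in MC (3.41, adjusted p = 0.00178). In both genes the MC groups did not overlap and the HC groups did. Poteml2 (3.5) and the fatty acid binding protein Fabp12 (3.31) were called as well, and all 4 kept their calls without each array and with the hepatocyte covariate, at 1.82 to 3.07. Thrsp, which promotes fat synthesis and is in the fatty acid synthesis list, reached 3.55 (adjusted p = 0.0424). Its call held only without HC water 3, MC water 2, HC PB 1 or MC PB 3.

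Of 16 measured genes of the pericentral zone, 5 were called (31.2%), 3 positive and 2 negative. Over all genes 11% were called, and 29.7% of those 1 to 3 log2 units higher in HC. Median changes of the 16 were -0.53 in HC and -0.49 in MC. The negative ones were Glul and Slc13a3, the only members called in HC. The positive ones fell in MC: Cyp2e1, a P450 that oxidises ethanol (2.98), Rgn, the calcium-binding regucalcin (2.81), and the P450 Cyp1a2 (2.44). Cyp2e1 stood at 11.29, 11.35 and 12.14 with water and 11.19, 10.98 and 11.13 with PB in HC, and at 9.89, 10.16 and 10.53 against 5.92, 8.02 and 6.23 in MC. Neither fraction's groups overlapped, but the margin in HC was small (HC change -0.49, adjusted p = 0.859). Its call was lost without MC PB 1, that of Rgn without HC PB 3 or MC PB 1, and that of Cyp1a2 in all leave-outs but those of HC water 3, MC water 2 and MC PB 2. Axin2, a feedback inhibitor of Wnt signalling, was not called (fraction difference -0.36, adjusted p = 0.5165), with changes of -0.94 in HC and -0.58 in MC. The count was 3 without HC PB 3, 2 without MC PB 1, 8 with the block, and 2 (Glul and Slc13a3) with the hepatocyte covariate.

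Periportal genes were called in 2 of 14 cases (14.3%, near the 11% of all genes), the urea cycle enzyme Otc (2.57) and the P450 Cyp2f4 (2.62), both positive. Their median change was 0.07 in HC and -1.49 in MC, where 8 fell and 2 rose (11.9% and 13.1% of all genes). The count was 6 without MC water 3, 4 without MC PB 2, 1 without HC water 1, HC PB 3 or MC PB 1, and 12 with the block. Genes of gluconeogenesis and amino acid breakdown were called in 8 of 28 cases (28.6%), all positive, with Cbs (2.27), Haao (2.22) and Hpd (2.12) after Otc. That share is near the 29.7% of all genes 1 to 3 log2 units higher in HC. Of these 28 genes 22 fell in MC, against 11.9% of all genes, and none was called in HC. The count was 0 without HC water 1 or HC PB 3, 1 without HC water 2 or MC PB 1, 3 without MC water 1, MC water 2 or MC PB 3, and 21 with the block. Of the named genes Cbs lost its call in the fewest leave-outs (HC water 1 and HC PB 3), then Otc (HC water 1, HC water 2, HC PB 3 and MC PB 1), while Haao held only without MC water 3 or MC PB 2 and Hpd only without HC water 3, HC PB 1 or MC PB 2.

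Bile acid genes were called in 4 of 20 cases (20%, against 11% of all genes and 29.7% of those 1 to 3 log2 units higher in HC). All were positive: the steroid dehydrogenase Akr1c14 (2.88), the bile acid conjugating enzyme Baat (2.84), the racemase Amacr (2.72) and the bile acid receptor Nr1h4 (1.91). Amacr stood at 9.32, 8.91 and 9.41 in MC with water and 6.21, 7.52 and 7.28 with PB, with no overlap. Targets of PPAR-alpha, the receptor that drives fatty acid oxidation, were called in 3 of 23 cases (13%): the fatty acid carrier Fabp1 (2.29), the peroxisomal Pex11a (2.06) and the dehydrogenase Acadm (1.70). Cholesterol synthesis had 3 of 19 (15.8%; Idi1 at 2.63, Tm7sf2 at 1.69 and Pmvk at 1.5), and fatty acid synthesis 2 of 22 (9.09%; Thrsp and Slc13a5). The last 3 shares are near that of all genes. In these 4 lists all calls were positive and no member but Slc13a5 was called in HC. In MC 11 bile acid, 9 PPAR-alpha, 8 cholesterol and 6 fatty acid genes fell, and 1 cholesterol gene rose. Over all genes 11.9% fell there and 13.1% rose. Akr1c14, Amacr, Fabp1, Pex11a and Acadm kept their calls without each array, Baat lost its call without MC PB 1, and Nr1h4 without MC water 1, MC water 2, HC PB 1 or MC PB 3. The cholesterol count was 0 without HC water 1, HC water 2, MC water 1, HC PB 3 or MC PB 1, 1 without MC water 3 and 5 without HC water 3 or MC water 2. Idi1 held only without HC water 3, MC water 2, HC PB 1, HC PB 2 or MC PB 3, Pmvk only without HC water 3, MC water 2, HC PB 1 or MC PB 2, and Tm7sf2 was lost without HC water 1, HC water 2, MC water 1, HC PB 3, MC PB 1 or MC PB 3. The fatty acid count was 1 without HC water 1, HC water 2, MC water 1, MC water 3, HC PB 2, HC PB 3 or MC PB 1. With the block the counts were 9, 9, 8 and 5 in the order given, and with the hepatocyte covariate all were 0.

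Secreted liver proteins moved together in MC, and few passed the test of the fraction difference. Of 32 acute phase, complement and coagulation genes 26 fell in MC, against 11.9% of all genes. None was called in HC, and the median changes were -1.75 in MC and 0.05 in HC. Only 4 of the 32 had a called fraction difference, a share near the 11% of all genes, all positive: hepcidin (Hamp, 2.34), plasminogen (Plg, 2.11), prothrombin (F2, 2.08) and the protease C1s (1.76). The count was 16 without MC PB 2, 0 without MC water 1 or MC PB 3, 1 without each of the other arrays but HC water 3 and MC water 3, and 26 with the block. MC PB 2 was the array with the highest hepatocyte marker mean of its group. The hepatocyte marker list behaved alike, with 16 of 19 lower in MC. In it 3 fraction differences were called (15.8%), those of Asgr1 (2.60), Asgr2 (2.40) and Hpd (2.12). The calls of Hamp, Plg and F2 held only without HC water 3, MC water 3 or MC PB 2, and C1s lost its call without MC water 1 or MC PB 3. Asgr1 held only without HC water 3 or MC PB 2, and Asgr2 lost its call without HC water 1, HC water 2, MC water 1, HC PB 3, MC PB 1 or MC PB 3. The hepatocyte marker count was 9 without MC PB 2, 0 or 1 without MC PB 1, MC PB 3, any MC water array, HC water 1, HC water 2, HC PB 2 or HC PB 3, and 15 with the block. Among Nrf2 targets, which respond to oxidants, 1 of 15 was called (6.67%), the glutathione synthesis subunit Gclm (1.77). Its call was lost without MC PB 1, and the count was 2 without HC water 3, without MC water 3 and with the block. None of these lists had a call with the hepatocyte covariate. For the hepatocyte marker list this carries no information, since its own mean is the covariate, and the acute phase list shares members with it.

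Fewer HC-higher genes were negative, 146 in all (1.75%), and 4 of the 6 named ones rose in MC. The flippase Atp11a stood at 6.39, 6.69 and 7.02 with water and 6.52, 6.83 and 6.39 with PB in HC, with overlap. In MC it stood at 4.53, 5.19 and 5.54 against 6.35, 6.07 and 6.52, without overlap, for a fraction difference of -1.35 (SE 0.29, adjusted p = 0.00257). The ubiquitin ligase Ubr1 (-1.27), the sodium, potassium and chloride transporter Slc12a2 (-1.19) and the mannose 6-phosphate receptor Igf2r (-1.40) moved likewise. Atp11a, Ubr1 and Slc12a2 kept their calls without each array, and with the hepatocyte covariate only Slc12a2 of the 4 kept its call (-1.23, adjusted p = 0.0147). Igf2r lost its call without HC water 1, HC water 2, MC water 3, HC PB 3, MC PB 1 or MC PB 2.

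Among MC-higher genes 409 (6.95%) were negative, and 4 of the 6 named ones rose in MC. Tnf, the inflammatory cytokine, stood at 2.31, 2.56 and 3.41 in MC with water and 4.86, 3.83 and 5.10 with PB. In HC it stood at 1.86, 1.5 and 2.37 against 1.54, 1.89 and 1.66, low throughout and with overlap, while the MC groups did not overlap. The fraction difference was -2.05 (SE 0.54, adjusted p = 0.0124). It was -1.59 with the hepatocyte covariate (adjusted p = 0.121). Chn1, a GTPase-activating protein for Rac, had the largest negative value among the named genes (-2.96, adjusted p = 0.0326), with MC values of 2.28, 2.90 and 4.74 against 5.74, 6.18 and 6.41. Its call held only without HC water 1, MC water 3, HC PB 1 or MC PB 2. Btrc, the F-box protein that marks beta-catenin and the NF-kB inhibitor for destruction, rose in MC from 3.35, 3.76 and 3.13 to 5.24, 4.66 and 4.08 and stood lower with PB in HC, at 2.64, 2.65 and 1.74 against 3.38, 3.07 and 2.83. Neither fraction's groups overlapped, and its fraction difference of -2.0 (SE 0.35, adjusted p = 0.000442) was -1.66 with the covariate (adjusted p = 0.00807). The HC change of Btrc did not pass alone (-0.75, adjusted p = 0.208). Its HC values lay near or below the array medians (3.31 to 3.44), so the size of that change is uncertain. Spry4, an inhibitor of receptor tyrosine kinase signals, was called at -1.91 (adjusted p = 0.00497). With the covariate Spry4 stood at -1.57 (adjusted p = 0.0600) and Chn1 at -1.69 (adjusted p = 0.303), and both lost their calls.

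**Figure D4:**
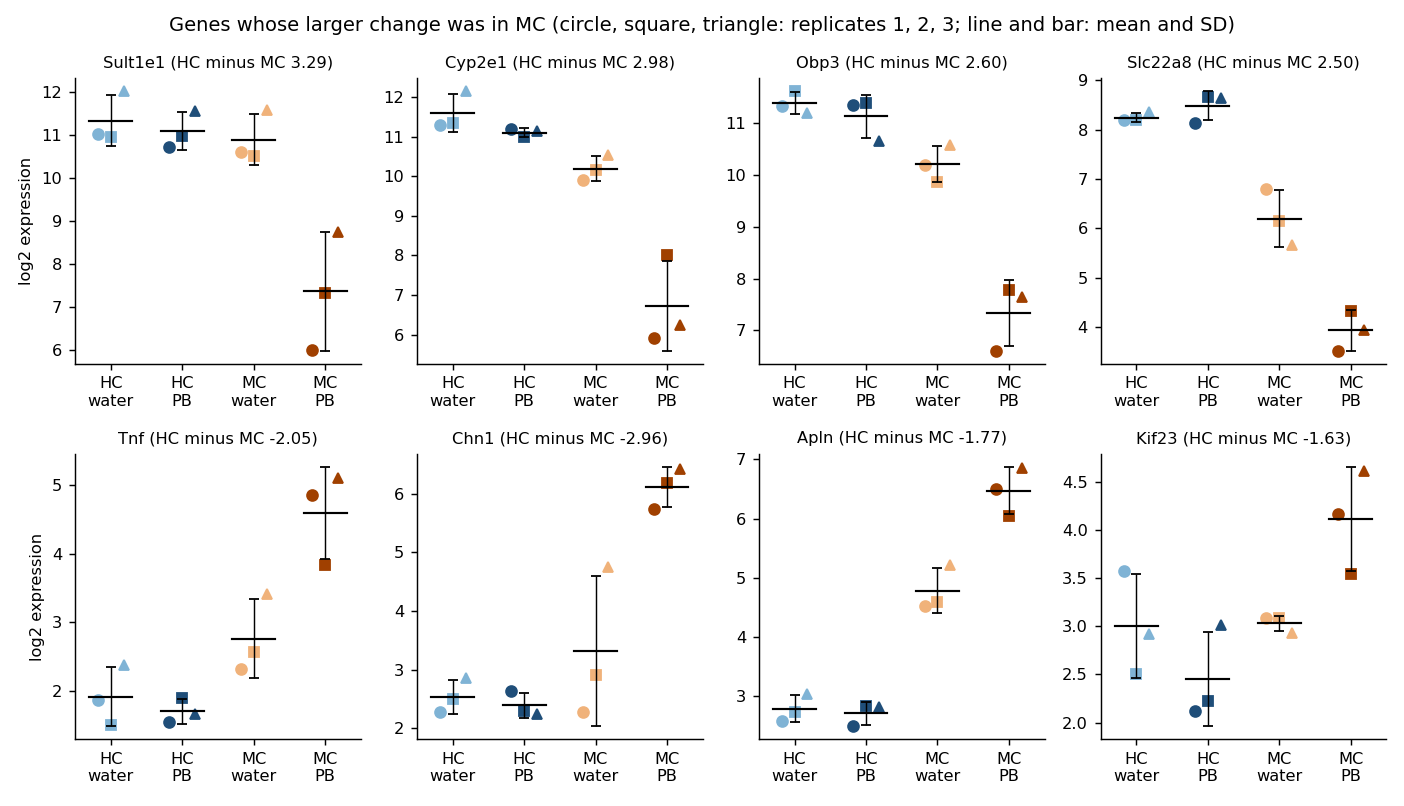
Log2 expression of 8 genes on each of the 12 arrays, by group (HC or MC, water or PB), with the group mean and SD. Sult1e1, Cyp2e1, Obp3 and Slc22a8 fall in MC with PB, and Tnf, Chn1, Apln and Kif23 rise there, while the HC groups lie close together.

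Growth factor, TGF-beta and Notch genes had 5 of 38 called (13.2%, near the 11% of all genes), all negative, a direction called in 3.9% of all genes. In MC 13 rose and 2 fell, against 13.1% and 11.9% of all genes. The peptide hormone apelin (Apln) stood at 4.52, 4.60 and 5.21 in MC with water and 6.50, 6.05 and 6.85 with PB, with no overlap, and between 2.49 and 3.04 in HC. Its fraction difference was -1.77 (adjusted p = 0.0194). The Notch regulator Nrarp (-1.73), the activin subunit Inhbb (-1.72), Tgfb1 (-1.08) and its receptor Tgfbr1 (-1.07) were called too, and Nrarp kept its call without each array. Apln lost its call without MC water 1 or MC PB 1, Inhbb without HC water 2, MC water 2, MC water 3, HC PB 2, HC PB 3 or MC PB 1, and Tgfb1 without HC water 1, MC water 1, HC PB 1 or MC PB 1 and with the block (adjusted p = 0.0818). The count was 3 without HC water 2, 2 without MC water 1 or MC PB 1, 8 with the block and 0 with the hepatocyte covariate.

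Of 39 G2/M and mitosis genes 5 were called (12.8%, near the 11% of all genes), all negative (3.9% of all genes). In MC 9 rose, against 13.1% of all genes. Kif23 and Racgap1, partners in the complex that divides the cell, had fraction differences of -1.63 (adjusted p = 0.00553) and -1.69 (adjusted p = 0.0287), and the kinesin Kif15 (-1.61), the centriole kinase Plk4 (-1.37) and Aurka followed. Kif23 stood at 3.08, 3.08 and 2.93 in MC with water and 4.16, 3.54 and 4.61 with PB, with no overlap, and at 3.57, 2.50 and 2.92 against 2.12, 2.22 and 3.01 in HC, with overlap. Kif23 kept its call without each array, Kif15 lost it without HC water 3, MC water 1 or MC PB 1, Racgap1 without HC water 1, MC water 1, HC PB 2, MC PB 1 or MC PB 3, and Plk4 held only without HC water 3, MC water 3, HC PB 3 or MC PB 2. The count was 9 without MC PB 2, 3 without HC water 2 or HC PB 1, 2 without HC water 1, HC PB 2 or MC PB 3, 1 without MC water 1 or MC PB 1, 8 with the block and 0 with the hepatocyte covariate. Of 41 G1/S and replication genes none was called by limma (8 at an unadjusted p under 0.05), 1 without HC water 2, HC water 3, HC PB 3, MC PB 2 or MC PB 3, and 3 with the block. Mcm6, a subunit of the replicative helicase, came nearest (-2.05, adjusted p = 0.0536, and 0.00195 with the block). Its groups did not overlap in either fraction, at 3.72, 3.56 and 3.72 against 2.67, 2.13 and 2.79 in HC and 4.49, 4.49 and 4.85 against 5.54, 5.21 and 5.82 in MC. The HC PB arrays lay below the array medians (3.31 to 3.44), so the size of the HC change of Mcm6 is uncertain. The proliferation marker Mki67 stood at -1.02 (adjusted p = 0.313, and 0.0420 with the block).

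Immediate early and stress genes rose in MC in 14 of 34 cases, against 13.1% of all genes, with a median change of 0.92. Only 2 had a called fraction difference (5.88%, against 11% of all genes). These were Trib1, a pseudokinase (-1.39), and Rgs2, a brake on G protein signals (-1.32). Trib1 was lost without HC water 1, HC water 2, MC water 1 or MC PB 1 and Rgs2 held only without HC water 2, HC water 3, MC water 3, HC PB 3 or MC PB 2, and both were lost with the block (adjusted p = 0.0964 and 0.0728). The count was 8 without MC water 3, 1 without HC water 2, MC water 2, HC PB 1 or MC PB 3, and 0 without HC water 1, MC water 1 or MC PB 1. Inflammatory cytokines and chemokines had 3 of 37 called (8.11%). Tnf was negative, and the superoxide dismutase Sod2 (1.43) and the chemokine Cxcl11 (1.55), both HC-higher, were positive. Without MC water 3 the count was 9. The call of Cxcl11 was lost without HC water 1, HC water 2, MC water 1, HC PB 3, MC PB 1 or MC PB 2. The interferon list had 1 of 22 called (4.55%), Gbp4 (-1.41). Its call was lost in all leave-outs but those of HC water 3, MC water 2, MC water 3 and MC PB 2. The unfolded protein response had 1 of 22 called (4.55%), the chaperone calnexin (Canx, -0.65). Its call was lost without HC water 2, MC water 1, MC PB 1 or MC PB 3 and with the block (adjusted p = 0.0613). Of 29 matrix and collagen genes none was called by limma (4 at an unadjusted p under 0.05), 1 or 2 without HC water 3, MC water 2, HC PB 1 or MC PB 3, and 3 with the block. The shares called in these lists were all below the 11% of all genes, and with the hepatocyte covariate none of the lists had a call.

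As sorted by the vehicle arrays, 82 MC-higher genes (1.39%) were positive, against 401 when sorted by the 14 d water arrays and 5 when sorted at a difference of 1. Obp1f, an odorant-binding protein, stood at 4.12, 4.12 and 5.61 in MC with water and 2.09, 2.26 and 2.45 with PB, and at 3.45, 3.22 and 3.18 against 2.89, 2.58 and 3.14 in HC. Neither fraction's groups overlapped, and its fraction difference was 1.94 (SE 0.35, adjusted p = 0.000648), or 1.83 with the hepatocyte covariate (adjusted p = 0.00741). The HC and MC PB values of Obp1f lay near or below the array medians (3.31 to 3.44), so the sizes of both changes are uncertain. Kxd1, which helps position lysosomes, was higher with PB in HC, from 5.94, 5.92 and 6.35 to 6.79, 6.87 and 6.47, and fell in MC, from 6.84, 6.56 and 6.79 to 5.84, 6.00 and 6.17, though only the MC change passed alone. Its groups did not overlap in either fraction, and the fraction difference was 1.37 (SE 0.21, adjusted p = 0.000125). Alas2, the haem synthesis enzyme of red cell precursors, stood at 6.81, 5.39 and 7.83 in MC with water and 4.55, 4.36 and 4.69 with PB (2.12, adjusted p = 0.0362). It was the 1 of 6 erythroid markers called (16.7%, against 11% of all genes). The mean of these markers in MC was 6.20, 5.25 and 7.04 with water and 4.79, 4.72 and 5.28 with PB, and their part in other results was not tested. The call of Alas2 held only without MC water 2, HC water 3, HC PB 1 or MC PB 3, and the erythroid count was 3 without MC water 2, 0 without HC water 1, HC water 2, MC water 1, MC water 3, HC PB 2, MC PB 1 or MC PB 2, and 2 with the block.

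Markers of the other cell types gave no call for the fraction difference by limma: 0 of 13 Kupffer and macrophage, 0 of 16 endothelial, 0 of 15 stellate, 0 of 7 cholangiocyte, 0 of 12 T and NK cell, 0 of 5 B cell, 0 of 8 neutrophil and 0 of 5 platelet markers. At an unadjusted p under 0.05 there were 2 stellate markers, 1 endothelial, 1 B cell and 1 neutrophil marker, and none of the other types. Their largest values were Cd163 (-1.09, adjusted p = 0.274) and Cd68 (-0.95) for macrophages, F8 (-1.24, adjusted p = 0.0820) and Eng (-0.67) for endothelium, and Reln (-1.42, adjusted p = 0.181) and Rgs5 (1.05) for stellate cells. Those of the other types were Epcam (0.64) and Krt19 (-0.34) for bile duct cells, Prf1 (-0.63) and Lck (-0.55) for T and NK cells, Ms4a1 (1.03) and Cd79b (1.0) for B cells, S100a9 (1.65) and S100a8 (0.90) for neutrophils, and Itgb3 (-0.34) and Gp9 (0.18) for platelets. Clec4f (-0.63) and Lyve1 (0.07) were not called either. Alb (0.34) was not called, but its HC arrays lie next to the highest value of the whole table, so a change there could not be read. In MC alone 4 endothelial markers rose, and 2 stellate and 1 neutrophil marker fell. Leave-outs gave at most 1 call in each list: a macrophage marker without HC PB 3, an endothelial one without HC water 2, HC PB 1 or MC PB 3, and a neutrophil one without MC water 2. The block gave 1 stellate call. With the Kupffer and endothelial marker mean of each HC array as a covariate, Clec4f (-1.11, adjusted p = 0.0335), Cd163 (-1.40), Cd68 (-1.30) and Reln (-1.69) were called. Clec4f, Cd163 and Cd68 are themselves part of that mean, which narrows their spread in HC by construction, so their calls carry no weight.

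**Figure D5:**
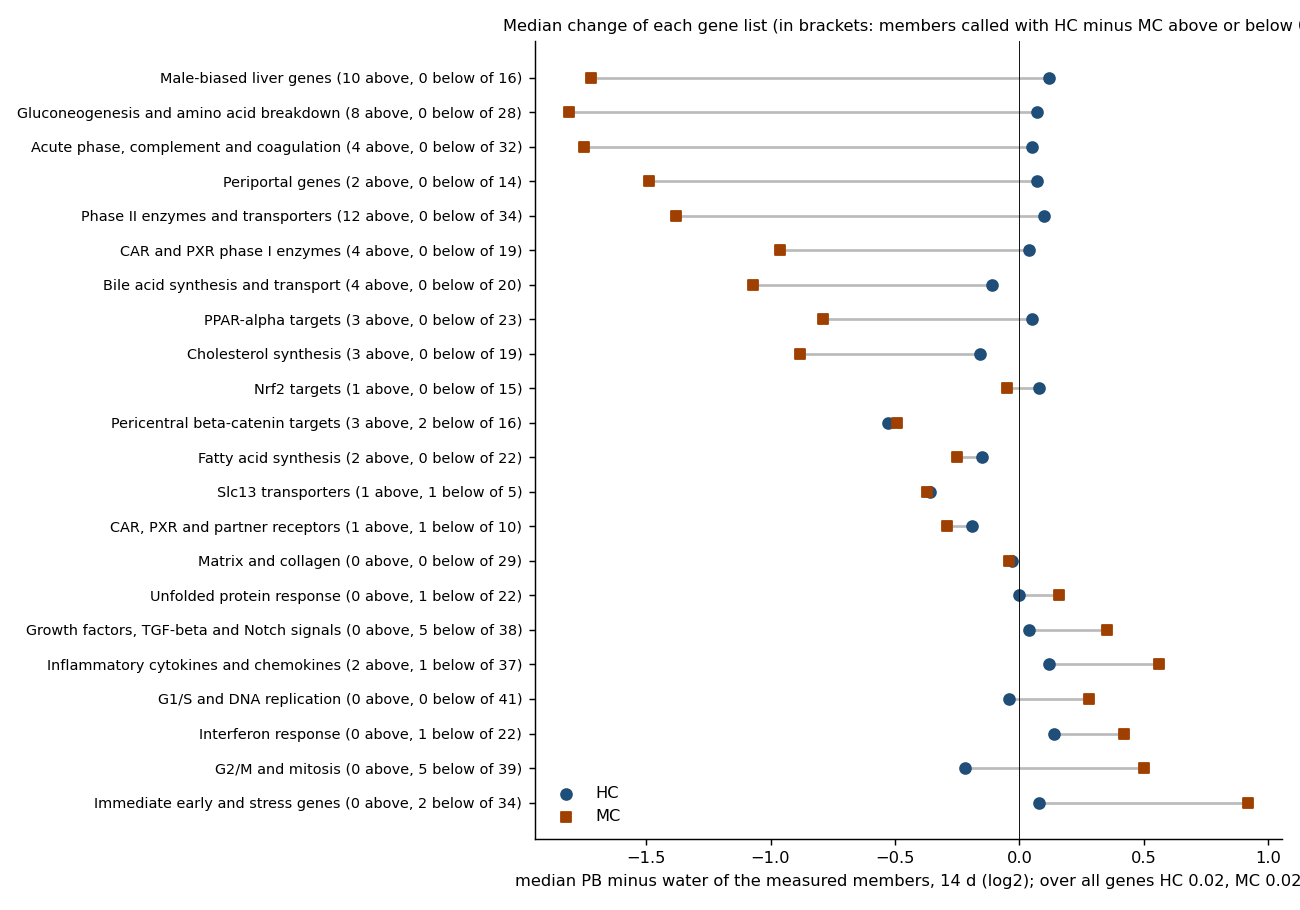
Median change with PB (x axis, PB minus water, log2) of the measured members of each gene list in HC (circles) and MC (squares), with the number of members called above and below 0 for the fraction difference in brackets. The HC medians lie between -0.53 and 0.14, and the MC medians between -1.81 and 0.92.

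At 24 h after a single PB dose by gavage, on 12 other arrays, no gene had a called fraction difference by limma (0.0%), and 646 had an unadjusted p under 0.05. Tested directly, the fraction difference changed between 24 h and 14 d in 1 gene (0.00703%), with 1269 at an unadjusted p under 0.05. This was Mpzl2, an adhesion protein of epithelia, whose fraction difference was -1.73 at 24 h (adjusted p = 0.215) and 1.22 at 14 d (adjusted p = 0.0278), a change of 2.95 (SE 0.52, adjusted p = 0.0162). In HC it fell at 24 h by 1.48 (adjusted p = 0.00281) and stood at 0.54 at 14 d (adjusted p = 0.495). Its 14 d call was lost without HC water 1, MC water 2, HC PB 2 or MC PB 1. Among the hepatocyte-led genes, Slc13a5 also had opposite signs, -0.77 at 24 h and 1.18 at 14 d, and its HC change was -1.01 at 24 h (adjusted p = 0.0117), but the difference between the times did not pass (1.95, SE 0.40, adjusted p = 0.119). For Glul the fraction difference was -0.48 at 24 h and -2.52 at 14 d, for Ccdc141 -0.14 and -2.18, for App 1.02 and 1.83, and for Ces2c 1.14 and 1.94, none of them different between the times by the test. Arrays labelled female numbered 40 in the series, more than the corn oil and CPA groups hold, so some of the 24 h PB and water arrays were female. The fit held a sex term, but sex cannot be fully told apart from time. Dosing by gavage at 24 h and in drinking water at 14 d cannot be told apart from time either.

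After 6 d of CPA at 100 mg/kg, against corn oil and on 12 further arrays, 697 genes (4.9%) had a called fraction difference, 470 positive and 227 negative. The PB and CPA fraction differences differed in 1336 genes (9.4%), higher with PB in 624 (4.39%) and lower in 712 (5.01%). This balance turned with same-numbered arrays as a block (1207 higher, 1111 lower) and on only the 24 arrays (838 and 748). The arrays of the 2 comparisons do not overlap, and 64 genes were called in both, 4.1% of the PB calls and 9.18% of the CPA calls. In 42 of these 64 the signs were opposite. Ccdc141 had the same pattern with both compounds, -2.18 with PB and -2.0 with CPA (adjusted p = 0.00236), where it fell in HC by 2.10, and App had 1.83 and 3.13 (adjusted p = 7.91e-07). Neither gene differed between compounds by the test (adjusted p = 0.892 and 0.142). Sult1e1 was positive with both, through a fall in MC with PB and a rise in HC of 2.76 with CPA. Obp3 (2.60 and -0.39, adjusted p of the difference 1.23e-05), Slc22a8 (2.50 and 0.58, 0.00195), Rgn (2.81 and -1.82, 0.00591) and Slc13a5 (1.18 and -0.25, 0.0199) differed between the compounds. Lpl, lipoprotein lipase, was not called with PB (1.55, adjusted p = 0.194), had -3.35 with CPA (adjusted p = 0.00516) and differed between them (adjusted p = 0.00400). Compound, sex (CPA rats were labelled female), vehicle and time differ together and cannot be told apart.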

How the data were processed

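RNA of rat liver hepatocytes (HC) and mesenchymal cells (MC) was measured on 60 Affymetrix arrays, 250 ng of RNA each. The values deposited by the authors are log2 expression, from RMA per the submitters' processing notes (version not given); the genome build was not given in the sources used here. Of 31042 probe sets 20826 carried 1 symbol, 436 several and 9780 none, and 99.7% of the first were matched by gene ID. Each of 14217 genes was read from 1 probe set, that of highest mean across the series. The groups follow the sample labels, which name water for the controls where the protocol text names oil.

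The fraction difference was tested with limma 3.58.1 (R 4.3.3, Python 3.11.15) on all 60 arrays, with 18 group means and a sex term within each fraction, Benjamini-Hochberg adjustment over all genes, and calls at an adjusted p under 0.05. Genes were sorted as HC-higher or MC-higher by 15 vehicle arrays per fraction outside the comparison. Named genes were, per sign and sorting, the 6 largest called differences without overlap in the fraction that changed more, likewise 6 per sign of the hepatocyte-led set, up to 4 called members per list (with none called, the 1 or 2 largest), and Ugt2b1, Ces2c, Nr1i3, Glul, Axin2, App, Lpl, Slc13a3, Slc13a4, Slc13a5, Ccdc141, Sult1e1, Cyp2e1, Tnf, Mki67, Clec4f, Lyve1, Alb and the Cyp2b probe set. The members and lists were chosen with earlier results of these data known. The fits were tested on simulated data. Array number limits the precision.

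Replicate numbers come from the sample labels. Same-numbered HC and MC arrays of a treatment deviated together (r from 0.18 to 0.46, 6 pairs), as did PB and water arrays of a fraction (0.20 to 0.64, 6 pairs), against -0.50 to 0.40 for other numbers (24 pairs), so the numbers were taken to pair the arrays. Alternatives were a block, leaving out arrays, fewer arrays, array weights, other normalization and probe choice, and marker means as covariates; those on HC arrays were chosen after seeing the data.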

Additional observations from a re-analysis of the deposited data

Results flagged for a closer look

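The following differed between the fractions by the limma test of the difference itself (HC change minus MC change, log2, 3 arrays a group). This was the case for 1561 genes. Among those always given, the fraction difference was 1.94 for Ces2c, -2.52 for Glul, 1.83 for App, -1.29 for Slc13a3, 1.18 for Slc13a5, -2.18 for Ccdc141, 3.29 for Sult1e1, 2.98 for Cyp2e1 and -2.05 for Tnf. For Mpzl2 the fraction difference itself differed between 24 h and 14 d of phenobarbital, by 2.95.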

How the results depend on the processing

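With 3 arrays a group, counts of calls moved with several choices. The fraction difference was called in 1561 genes, and in 971 on only the 12 arrays, 855 at 2-fold or more, 208 with the hepatocyte marker mean of MC arrays as a covariate and 200 with both marker means as covariates, in 641 to 1828 without 1 array, and in 53, 799 and 1083 without replicate 1, 2 or 3 of all 4 groups. For the HC-higher genes (1070) the count was 470 when sorted at a difference of 1, 647 at 2-fold, 158 and 151 with the covariates, 489 to 1183 without 1 array, and 39, 532 and 712 without a replicate number. For the MC-higher genes (491) it was 195 on the 12 arrays, 211 when sorted at a difference of 1, 208 at 2-fold, 50 and 49 with the covariates, 152 to 645 without 1 array, and 14, 267 and 371 without a number. The HC change (17) was called in 5 genes on the 12 arrays, 7 with array weights, 11 with the fractions fitted apart, 31 with both covariates, 33 with all probe sets and 33 with quantile normalization, in 8 to 451 without 1 array, and in 3, 13 and 341 without a number. The MC change (3554) was called in 2164 genes on the 12 arrays, 535 and 583 with the covariates, 1954 to 3673 without 1 array, and 730, 2727 and 2921 without a number. The change from 24 h to 14 d was called in 3 genes on only the 24 arrays. The cause of these shifts was not tested.

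The balance of directions turned in some counts. Beside those given with the results, the HC change had 16 rises and 17 falls with all probe sets and 5 and 8 without replicate 2 of all 4 groups. The MC change had 236 and 299 with the hepatocyte covariate, 263 and 320 with both covariates, 960 and 1194 without MC water 1, 843 and 1111 without MC PB 1, and 195 and 535 or 1347 and 1380 without replicate 1 or 2 of all 4 groups. The MC-higher genes had 8 positive and 6 negative calls without replicate 1 of all 4 groups.

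No called gene among those named changed sign, but 8 uncalled ones did. With the hepatocyte covariate Alb stood at -0.47, Eng at 0.03, Itgb3 at 0.17 and Ugt2b1 at -0.03, and with both covariates Alb at -0.47, Ugt2b1 at -0.08 and Lyve1 at -0.09. Lyve1 also stood at -0.44 with the HC covariate, -0.09 with array weights, -1.09 to 0.84 without 1 array and -0.28 without replicate 3 of all 4 groups. Alb is part of the marker mean used as the hepatocyte covariate, and Lyve1 of that used as the HC covariate. Clec4f stood at 0.12 without replicate 1 of all 4 groups. Without 1 array Gp9 ranged from -0.01 to 0.36 and S100a8 from -0.08 to 1.45.

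With same-numbered HC and MC arrays as a replicate block the fraction difference was called in 1739 genes, and with a block by number in 1964. The paired fit by number gave 10 HC calls, and the block of same-numbered arrays raised the difference between PB and CPA from 1336 to 2318 genes. Calls of named genes and counts in lists that the block changed are given beside them.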

Other observations

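Genes of the mitochondrial respiratory chain and its ribosomes were lower with PB in MC; these families were chosen after their values were seen. Of 42 genes of complex I, the entry point of electrons, 30 had a called fraction difference (71.4%), all positive, and 32 fell in MC. Over all genes 11% were called, 7.08% were positive and 11.9% fell in MC. Their mean was 8.59, 8.58 and 8.70 in MC with water and 7.77, 7.95 and 8.11 with PB, with no overlap, and 8.52, 8.55 and 8.87 against 8.72, 8.83 and 9.02 in HC, with overlap. Of 73 mitochondrial ribosomal protein genes 49 were called (67.1%), and of 40 other respiratory chain and ATP synthase genes 25 (62.5%), all positive. Their median fraction differences were 0.84 and 0.75, against 0.92 for complex I and -0.03 for all genes. Cytosolic ribosomal proteins had 4 of 47 called (8.51%, median 0.18), proteasome subunits 7 of 37 (18.9%, median 0.39) and collagen chains 0 of 41 by limma (median 0.04). With the hepatocyte covariate the counts were 10 for complex I, 5 for mitochondrial ribosomal proteins, 8 for the other respiratory chain genes, 0 for cytosolic ribosomal proteins and 1 for the proteasome.

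The fraction difference also varied with the length of the gene on the genome (RefSeq, GRCr8, 14204 genes), likewise looked at after values were seen. With genes split by span into 5 equal bins, in the bin of shortest span (median 3.9 kb) the median fraction difference was 0.14, and in that of longest span (median 126.1 kb) it was -0.19. Spearman's rho across genes was -0.242, and genes are not independent replicates. The median MC change was -0.09 in the bin of shortest and 0.14 in that of longest span, and the median HC change 0.07 and -0.03. Families of short genes are among those above, with median spans of 7.1 kb for complex I and 6.5 kb for mitochondrial ribosomal proteins, while cytosolic ribosomal genes had 3.5 kb. Whether RNA quality had a part in this was not tested.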
